A study of Mus musculus with 2 samples.

Results

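The genes described are the EGR and NR4A immediate early transcription factors and the NAB corepressors of the EGR factors, in sorted cells that the labels call ILCregs, regulatory innate lymphoid cells. Members were chosen by gene symbol from a list of 9 genes, and a gene was measured where an array feature (transcript cluster) carried its symbol and no other. In all, 8 of the 9 were measured, through 9 features, out of 28281 named genes on 61344 features. Egr1 was not analysed here. They were sorted from small intestines of mice aged 8 weeks, of strain C57BL/6 and genotype IL-10-GFP knockin, in which green fluorescent protein sits at the interleukin 10 locus. The sort gates are not stated in the sources used here. The 1 group, ILCreg, holds 2 whole-transcript arrays, replicate 1 and replicate 2, with no second population or treatment. The labels do not say that the arrays stem from different animals or sorts, and their spread may be only technical.

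EGR proteins are zinc finger transcription factors, and NR4A proteins are orphan nuclear receptors that act largely through how much of them is made. Both families are transcribed within minutes of a growth factor, antigen receptor, calcium or cyclic AMP signal, EGR genes chiefly through the ERK kinases, the ternary complex factors and serum response factor, and NR4A genes through CREB, MEF2 and NFAT proteins. NAB1 and NAB2 bind EGR proteins and repress their targets. In T cells EGR2 and EGR3 restrain activation, and NR4A receptors take part in regulatory T cell development and in exhaustion.

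The signal of each gene is on the log2 scale, and it was read against 1678 olfactory, vomeronasal and taste receptor genes on the same array. Their 95th percentile set a threshold of 6.19 in replicate 2 and 6.74 in replicate 1. Of the 8 measured genes, 6 exceeded it in both replicates, 1 in a single replicate and 1 in neither, beside 31.7% of all named genes (8971 of 28281) and 38.9% of the 16404 protein-coding genes outside the receptors. The 6 were Nr4a1, Nr4a2, Nr4a3, Egr2, Nab1 and Nab2. The median signal of the 8 genes was 7.66, and that of all named genes was 5.43. With 1 group there is no test of a difference, and the number of arrays limits the precision. Because probe affinity varies, a higher signal of 1 gene than of another is no measure of more transcript.

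**Figure D1:**
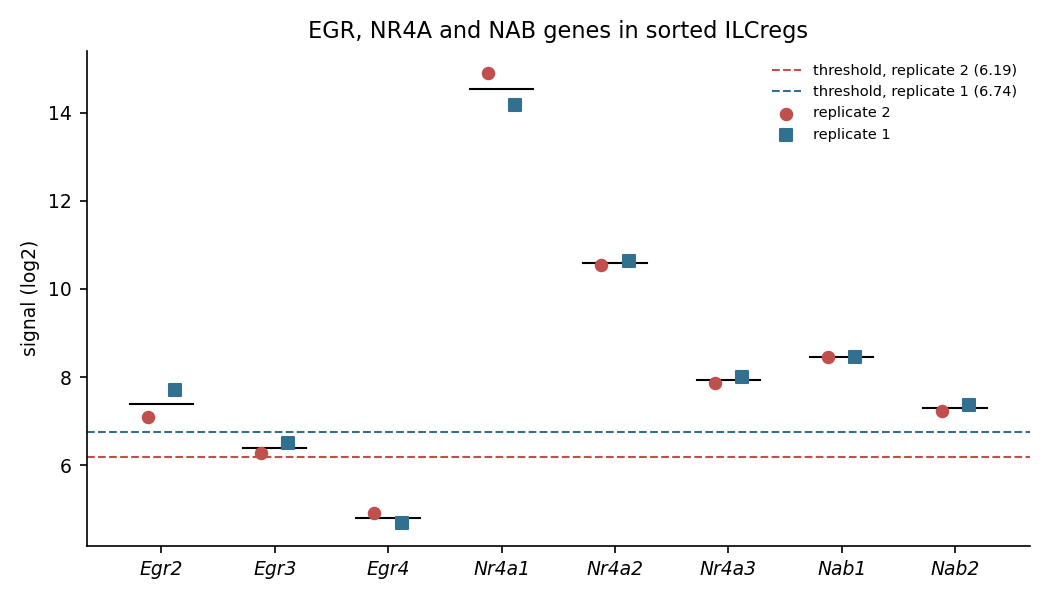
Signal (log2) of the 8 measured genes in replicate 2 (circles) and replicate 1 (squares), with the mean of both as a short line and the threshold of each array dashed. The 3 NR4A genes and both NAB genes lie above both thresholds, whereas among the EGR genes Egr2 does, Egr3 (6.28 and 6.51) straddles them and Egr4 (4.92 and 4.68) lies below.

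All 3 NR4A receptor genes were above the threshold on both arrays. Nr4a1, which encodes NUR77, a receptor widely used as a readout of antigen receptor signalling, had a signal of 14.90 in replicate 2 and 14.17 in replicate 1 (mean 14.53 ± 0.52, SD, n = 2). It stood 8.71 and 7.43 above the thresholds of these arrays, the widest margin of the 8 genes on either array, and was the gene with the largest spread between them. Nr4a2, which encodes NURR1, a receptor also required for midbrain dopamine neurons, had 10.55 and 10.63 (10.59 ± 0.05, SD, n = 2). Both arrays thus gave nearly the same value, 4.36 and 3.88 above their thresholds. Nr4a3, which encodes NOR1, had 7.86 and 8.01 (7.94 ± 0.10, SD, n = 2). Its margins, 1.67 and 1.27, were the narrowest of the family. None of the 8 genes lay within 0.001 of the highest signal on an array. Saturation of single probes cannot be read from these values and was not tested.

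The promoter windows of the NR4A genes are shown because all 3 hold the same number of matches to the core of the cyclic AMP response element, TGACG, at which CREB proteins bind. The windows run from 250 bases before to 50 after an annotated transcript start, from RefSeq on GRCm38.p6, and are written 5′ to 3′ on the strand of the gene. Capitals mark matches on either strand to any of 6 motifs: TGACG, the full element TGACGTCA, the EGR site GCGNGGGCG, the NR4A monomer site AAAGGTCA, the TATA box letters TATAAA and the CArG box, the site of serum response factor.
Nr4a1 promoter, chr15:101266596-101266895, plus strand: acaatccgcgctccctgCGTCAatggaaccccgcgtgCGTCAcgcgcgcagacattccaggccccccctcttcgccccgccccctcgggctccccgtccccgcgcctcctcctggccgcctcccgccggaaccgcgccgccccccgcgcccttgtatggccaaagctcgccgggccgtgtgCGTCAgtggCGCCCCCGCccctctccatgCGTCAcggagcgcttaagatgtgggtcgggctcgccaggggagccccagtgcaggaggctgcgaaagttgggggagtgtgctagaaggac
Nr4a2 promoter, chr2:57123954-57124253, minus strand: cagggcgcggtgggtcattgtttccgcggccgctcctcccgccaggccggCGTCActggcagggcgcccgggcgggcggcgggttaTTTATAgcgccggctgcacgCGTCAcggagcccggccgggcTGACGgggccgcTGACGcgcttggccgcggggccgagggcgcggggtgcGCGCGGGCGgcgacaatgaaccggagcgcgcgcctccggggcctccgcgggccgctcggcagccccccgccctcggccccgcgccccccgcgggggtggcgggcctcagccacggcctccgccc
Nr4a3 promoter, chr4:48045055-48045354, plus strand: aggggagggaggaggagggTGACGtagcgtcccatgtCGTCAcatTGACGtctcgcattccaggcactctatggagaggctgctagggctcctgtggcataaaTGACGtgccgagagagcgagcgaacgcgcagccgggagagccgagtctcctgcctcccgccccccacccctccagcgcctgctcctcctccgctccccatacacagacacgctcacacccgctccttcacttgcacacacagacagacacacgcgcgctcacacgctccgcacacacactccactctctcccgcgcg

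Each NR4A window held 4 matches to TGACG, counting both strands. Of 32851 windows of this length in the table, 0.231% held at least 4, and 20.8% held at least 1. The share was higher among windows rich in G and C. Among the 2120 windows with at least the 72.3% GC of Nr4a1, 0.566% held at least 4. The share was 0.563% of the 6218 windows at or above the 64.7% of Nr4a3. Nr4a2 itself was the 1 such window among the 193 at or above its 81.7% GC. Positions are counted from the annotated start, -1 being the base before it. In Nr4a1 the match nearest the start lay at -40 to -36 and another at -69 to -65, with an EGR site between them at -60 to -52. Nr4a2 held 1 EGR site too, and TATAAA, which stood in 13.6% of all windows, on the strand opposite the gene. An EGR site stood in 5.55% of all windows, but in 33.6% of those at or above the GC of Nr4a1 and in 58.0% of those at or above that of Nr4a2. The NR4A site itself was in 1.51% of all windows and the full cyclic AMP element in 1.79%, and neither was in any window of the 7 measured genes that the table holds. A match is a run of letters and was not tested as a binding site.

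The EGR factors were divided. Egr2, which encodes KROX20, needed for hindbrain patterning and myelination and a restraint on activated T cells, had a signal of 7.08 in replicate 2 and 7.70 in replicate 1 (7.39 ± 0.43, SD, n = 2). Both values were above their thresholds, by 0.89 and 0.95, and replicate 1 was the higher. Egr3, a relative that acts with EGR2 in lymphocytes and is needed for muscle spindles, had 6.28 and 6.51 (6.39 ± 0.16, SD, n = 2). It exceeded the threshold by 0.09 in replicate 2 and fell short by 0.24 (-0.24) in replicate 1. Its own signal was lower on the array where it passed, and the threshold of that array was lower too, by 0.55. Egr4, the family member that lacks the NAB binding region, had 4.92 and 4.68 (4.80 ± 0.17, SD, n = 2). It was 1.27 and 2.06 under the thresholds (-1.27 and -2.06), and so not distinguishable from receptor gene signal; whether it was transcribed at a low level cannot be read from these arrays.

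The Egr2 window is shown because it holds a CArG box, the element through which serum response factor and its partners act on EGR genes.
Egr2 promoter, chr10:67537619-67537918, plus strand: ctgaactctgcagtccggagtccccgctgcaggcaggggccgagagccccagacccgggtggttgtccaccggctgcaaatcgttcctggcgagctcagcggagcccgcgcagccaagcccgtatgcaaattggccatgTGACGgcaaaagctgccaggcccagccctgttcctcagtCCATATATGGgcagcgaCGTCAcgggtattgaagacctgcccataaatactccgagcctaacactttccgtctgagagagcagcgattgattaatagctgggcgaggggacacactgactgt

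RefSeq lists 5 windows for Egr2, of which the one printed and 2 more overlap and share the same matches. The printed window held 1 CArG box at -72 to -63 and 2 matches to TGACG, at -111 to -107 and -55 to -51. A CArG box stood in 1.63% of all windows and in 1.07% of the 9690 with at least the 60% GC of this one. Another Egr2 window, starting at 67537316 on chromosome 10, held a CArG box at the same distance from its own start, and the most upstream held none of the motifs. The Egr4 window held 2 matches to TGACG and no CArG box. At least 2 matches to TGACG stood in 5.01% of all windows. The share was 8.66% of the 4332 windows with at least the 67.7% GC of Egr4. It was 9.30% of the 9690 windows with at least the 60% GC of the printed Egr2 window. The windows of the NR4A and NAB genes held no CArG box either. Egr3 was not matched in the promoter table.

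**Figure D2:**
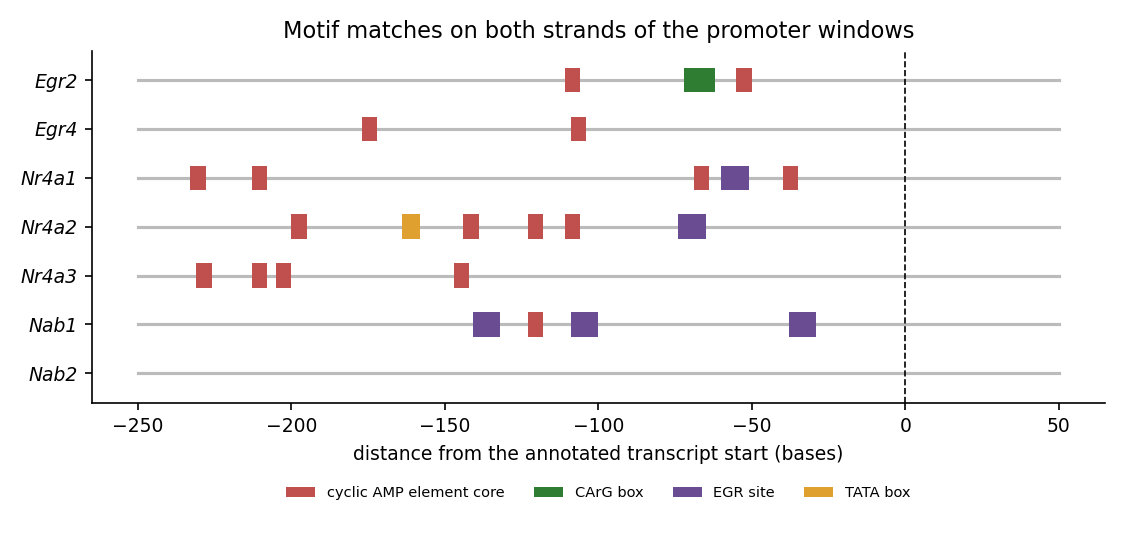
Matches to the motifs in the promoter windows of 7 measured genes, by distance in bases from the annotated start (dashed), with the window of most matches drawn for Egr2. The 3 NR4A windows hold 4 cyclic AMP element cores each, Egr2 the 1 CArG box, Nab1 3 EGR sites, and Nab2 none of the motifs.

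Both NAB corepressor genes were above the threshold on both arrays. Nab1 had a signal of 8.47 in replicate 2 and 8.45 in replicate 1 (8.46 ± 0.01, SD, n = 2), the smallest SD of the 8 genes before centring. Nab2, which is itself known as an EGR target and so as part of a feedback loop, had 7.22 and 7.37 (7.30 ± 0.11, SD, n = 2), 1.03 and 0.63 above the thresholds. That value comes from the brighter of 2 Nab2 features. The dimmer one had 5.41 and 5.39 (5.40 ± 0.01, SD, n = 2), below the threshold on both arrays, so the features disagree on whether Nab2 was above it. In the RefSeq gene table Nab2 overlaps Stat6, a signal transducer of interleukin 4, which had 9.17 and 9.26. Where the 2 Nab2 features lie relative to that overlap was not examined.

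The Nab1 window is shown because it holds the EGR site more than once, and the corepressors act on EGR proteins.
Nab1 promoter, chr1:52500399-52500698, minus strand: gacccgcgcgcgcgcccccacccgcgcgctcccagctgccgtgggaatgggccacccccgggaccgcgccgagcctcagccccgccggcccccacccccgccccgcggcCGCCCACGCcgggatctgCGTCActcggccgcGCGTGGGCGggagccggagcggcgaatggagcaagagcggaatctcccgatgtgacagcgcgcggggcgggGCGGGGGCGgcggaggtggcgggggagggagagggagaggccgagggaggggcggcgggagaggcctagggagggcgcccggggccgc

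It held 3 matches to GCGNGGGCG, at -141 to -133, -109 to -101 and -38 to -30, and 1 to TGACG. At least 3 EGR sites stood in 0.195% of all windows, and in 8.29% of the 193 windows that had at least its 81.7% GC. The Nab2 window held none of the 6 motifs.

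None of the 8 genes was over 2-fold apart between the arrays, where 3.45% of all named genes were (976 of 28281). Differences are replicate 2 minus replicate 1, on the log2 scale, centred on the median named gene, which was at -0.05. Nr4a1 differed most, by 0.78 toward replicate 2, which is 1.71-fold if the base is 2, as taken here. Egr2 differed by -0.57, toward replicate 1, and Egr4, under both thresholds, by 0.29. The other 5 genes lay between -0.18 for Egr3 and 0.06 for Nab1. In all, 3 genes were higher in replicate 2 and 5 in replicate 1, with a median difference of -0.06, and under quantile normalization 2 and 6, as Nab1 turned to -0.09. Nr4a1 and Egr2 thus lay on opposite sides, and each rests on 1 array against 1.

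**Figure D3:**
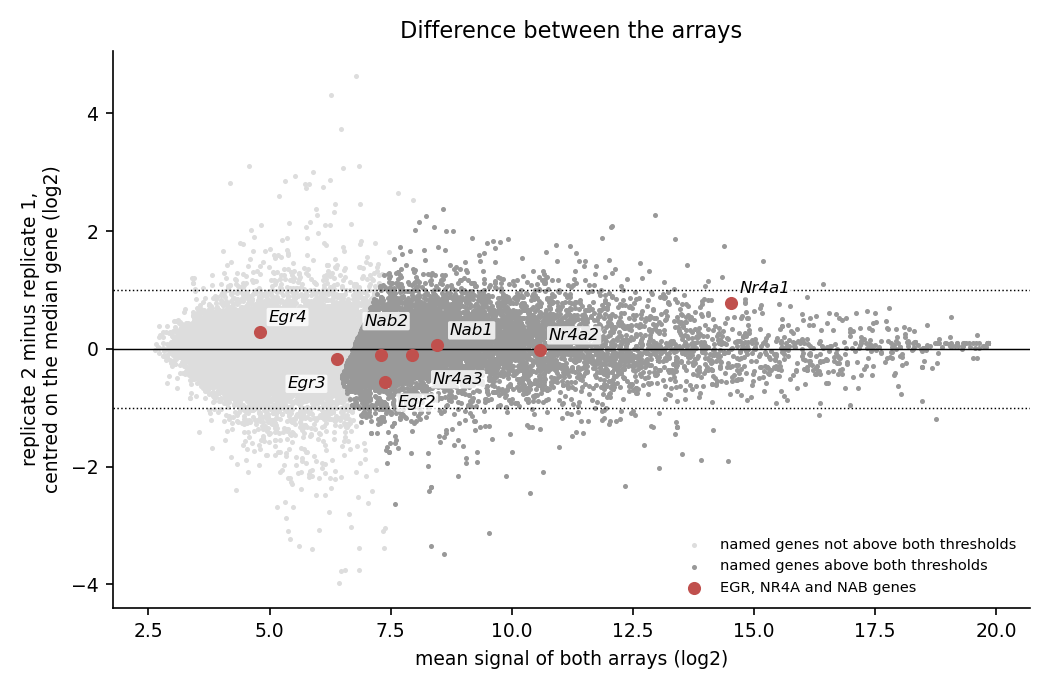
Difference between the arrays (replicate 2 minus replicate 1, log2, centred) against mean signal (log2) for all named genes, with the EGR, NR4A and NAB genes in red and 2-fold marked by dotted lines. All 8 lie within 2-fold, with Nr4a1 (0.78) and Egr2 (-0.57) farthest from 0.

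Markers of other cell types also differed between the arrays. Of all named genes, 31.7% were above the threshold on both arrays, and 4960 of these 8971 were higher in replicate 2 after centring. All 5 measured stromal and smooth muscle markers were above the threshold on both arrays, and 5 of 5 were higher in replicate 2. Their summed log2 signal was 70.9 there and 65.1 in replicate 1. The fibrillar collagen genes Col3a1, Col1a2 and Col1a1 differed by 2.08, 1.89 and 1.74, whereas Dcn and Myh11 differed by only 0.11 and 0.15. Of the macrophage and monocyte markers, 5 of 5 were above the threshold and 4 of 5 higher in replicate 2 (summed signals of 58.7 and 56.5). The macrophage surface gene Adgre1 had 10.26 and 9.46, and the exception, Lyz2, differed by -0.05. Epithelial markers (7 of 7 above the threshold) summed to 84.0 and 84.3, with single genes apart in both directions: Krt20 had 9.80 and 9.03 and Fabp1 11.90 and 13.04, differences of 0.81 and -1.09. No measured marker of the stromal, macrophage and epithelial lists was below the threshold. Of 8 measured mast cell and granulocyte markers, only 3 were above it on both arrays. Of these the neutrophil gene S100a9 was lower in replicate 2, at 6.70 and 7.90 (-1.15), whereas Csf3r differed by 0.11 and Kit by -0.04. The part of all these markers in the differences of Nr4a1 and Egr2 was not tested. In these bulk samples fewer cells of a type and less RNA per cell cannot be told apart.

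The label of the cells was read against their known genes on the same arrays. Of 12 identity genes of innate lymphoid cells and ILCregs, 11 were above the threshold on both arrays, beside 31.7% of all named genes. Among the 11 were Ptprc (CD45), Id2 and Tgfbr2, with Il10 at 11.05 and 10.59. The exception was Thy1, at 5.72 and 5.56. The labels give a purity of over 95%. Markers of epithelium (Krt8, 15.76 and 15.42), fibroblasts (Dcn, 19.34 and 19.28, near the highest values of the arrays, 19.86 and 19.80), macrophages (Lyz2, 14.66 and 14.76), T cells (Cd3e, 9.90 and 9.68) and plasma cells (Jchain, 18.11 and 17.47) had signal on the same arrays. Above both thresholds were 7 of 7 epithelial, 5 of 5 stromal and smooth muscle and 5 of 5 macrophage and monocyte markers. So were 5 of 7 T cell, 5 of 6 B and plasma cell and 3 of 6 endothelial markers. Of mast cell and granulocyte markers 3 of 8 passed, and of enteric neuron and glia markers 1 of 6. The count of 11 identity genes therefore does not by itself single out ILCregs. Which cells gave the signal of Nr4a1, Egr2 or the other genes was not tested.

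Genes of the pathways that act on EGR and NR4A genes were mostly above the threshold, although the first of these lists was not with a stricter one. Among all named genes, 31.7% passed on both arrays. Of 5 measured serum response and ternary complex factors 4 passed on both arrays: Elk1 (8.09 and 7.87) and Elk4 (7.93 and 7.41), ETS factors phosphorylated by ERK, and the actin-regulated coactivators Mrtfb (7.30 on both) and Mrtfa (7.42 and 7.11). Elk3 passed in replicate 2 alone, with 6.77 against 6.53, and Srf was not analysed here. After centring all 5 were higher in replicate 2, Mrtfb by only 0.05. The list's median difference was 0.29, and none was over 2-fold apart. With the 99th percentile of the receptor genes as the threshold, 0 of these 5 passed. Of 12 measured CREB, MEF2 and NFAT genes 10 passed (7 with the 99th percentile), led by the acetyltransferase gene Crebbp (11.12 ± 0.13), Mef2a (10.86 ± 0.39) and Creb1 (10.24 ± 0.23; SD, n = 2 each). Of the cyclic AMP coactivator genes, Crtc2 (9.75 and 9.58) and Crtc3 (7.01 and 6.85) passed on both arrays. Crtc1 (5.41 and 5.39) was below both thresholds, and Nfatc2 (6.50 and 6.42) passed in replicate 2 alone. Nfatc3 was the most different of this list, at 8.46 and 7.61. Of 7 measured ERK pathway genes 6 passed, with the GTPase gene Nras at 10.29 and 9.86 and the kinase gene Map2k1 at 8.33 and 9.17. Map2k1 was thus lower in replicate 2, by 0.79 after centring (-0.79), while the list's median difference was 0.19.

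The list of partners of these proteins held 6 measured genes, among them Wt1, a factor with a like DNA site. Of the 6, 2 passed on both arrays, near the share of all named genes (31.7%). The 2 were Chd3 (9.33 and 9.19) and Hcfc1 (9.39 and 9.08). Chd3 is a chromatin remodeller gene of the family that NAB proteins recruit, and Hcfc1 encodes a coregulator of the cell cycle. Chd4, also listed, was not analysed here. The retinoid X receptor genes, whose products pair with NUR77 and NURR1, did not pass on both arrays. Rxrb (6.31 and 6.23) and Rxra (6.21 and 6.24) passed in replicate 2 alone, and Rxrg (4.42 and 4.52) on neither. Wt1, whose zinc fingers bind a site much like that of EGR proteins, was at 4.39 and 4.43, below both thresholds.

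Genes reported as targets in T cells were split, where 31.7% of all named genes passed on both arrays. Of 13 measured targets of EGR2 and EGR3, 8 passed on both arrays (5 with the 99th percentile), with a median signal of 7.26. The cell cycle inhibitor gene Cdkn1a (14.43 and 14.12), the ubiquitin ligase gene Cblb (10.19 and 9.85) and the diacylglycerol kinase gene Dgka (9.92 and 9.52), the last 2 brakes on antigen receptor signalling, were highest. The cytokine signalling inhibitors Socs1 (4.69 and 4.82) and Socs3 (4.18 and 4.27) were lowest and below both thresholds. The ubiquitin ligase gene Rnf128, also called GRAIL, was at 8.42 and 7.73, and the death ligand gene Fasl at 6.90 and 7.61. They differed in opposite directions, by 0.74 and -0.66. Of 10 measured NR4A targets 7 passed (3 with the 99th percentile), with a median signal of 7.37. The inhibitory receptor gene Ctla4 had 10.85 and 10.99 and the transcription factor genes Irf4 and Runx1 8.79 and 8.30, and 8.89 and 8.13. Tigit, an inhibitory receptor gene, was the 1 target over 2-fold apart, with 8.30 and 7.12 and a difference of 1.23. Ikzf2 (6.15 and 5.90) and Tox2 (4.99 on both) were below both thresholds. Foxp3 was not analysed here.

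**Figure D4:**
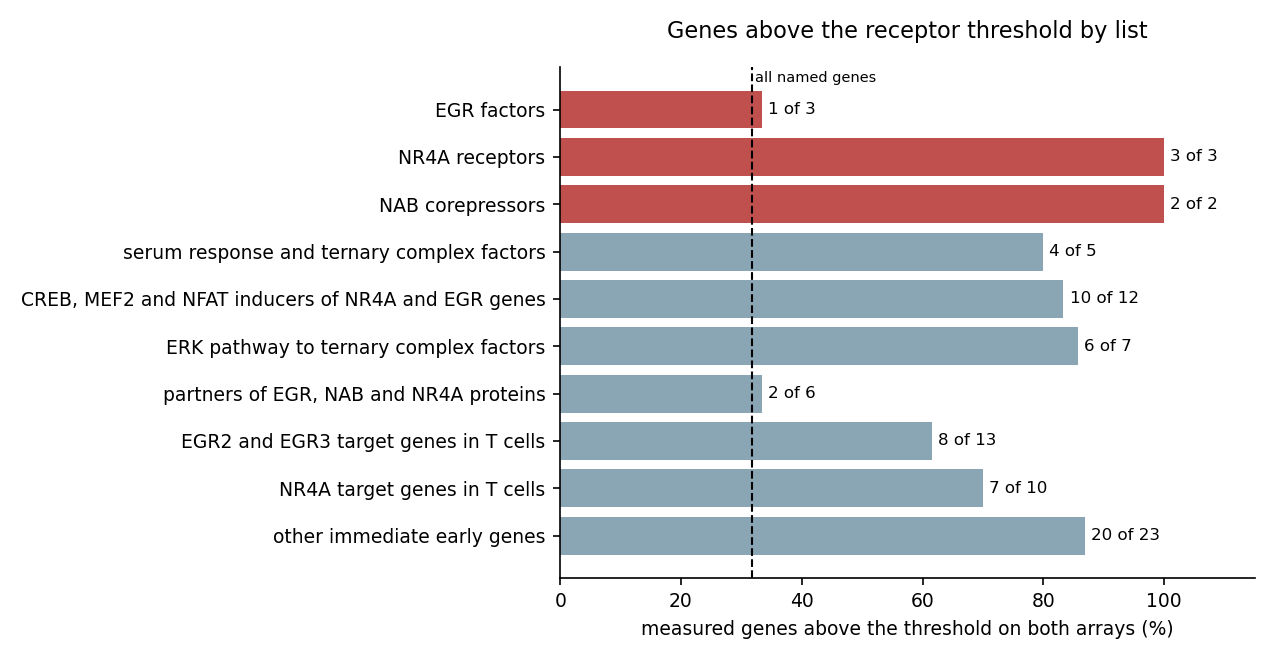
Percentage of the measured genes of each list above the threshold on both arrays, with counts beside the bars and the 31.7% of all named genes as a dashed line. The EGR factors (1 of 3) and the list of partners, with Wt1 counted in it (2 of 6), lie near the dashed line. The other 8 lists drawn lie above it.

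Most other immediate early genes were above the threshold. Of 23 measured, 20 passed on both arrays, beside 31.7% of all named genes, and their median signal was 10.26 over all 23. After centring, 15 were higher in replicate 2 and 8 in replicate 1. Of all named genes above the threshold on both arrays, 4960 of 8971 were higher in replicate 2. So were 99 of the 138 other listed genes, which include these 23. The AP-1 subunit gene Fosb (17.52 and 17.21), the prostaglandin synthase gene Ptgs2 (16.39 and 16.03) and the MAP kinase phosphatase gene Dusp1 (15.88 and 15.16) were highest. The AP-1 gene Jun (13.98 and 13.11) and the Krüppel-like factor gene Klf4 (11.29 and 10.44) were the most different among those above the threshold. Both were named for the size of their difference, 0.91 and 0.90 toward replicate 2. Arc (5.72 and 5.57), a gene best known from neurons, and Ier3 (4.45 and 4.77) were below both thresholds, as Egr4 was. Immediate early genes are known to be induced when live tissue is dissociated. No sample taken before dissociation was analysed here, and the part of handling was not tested.

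**Figure D5:**
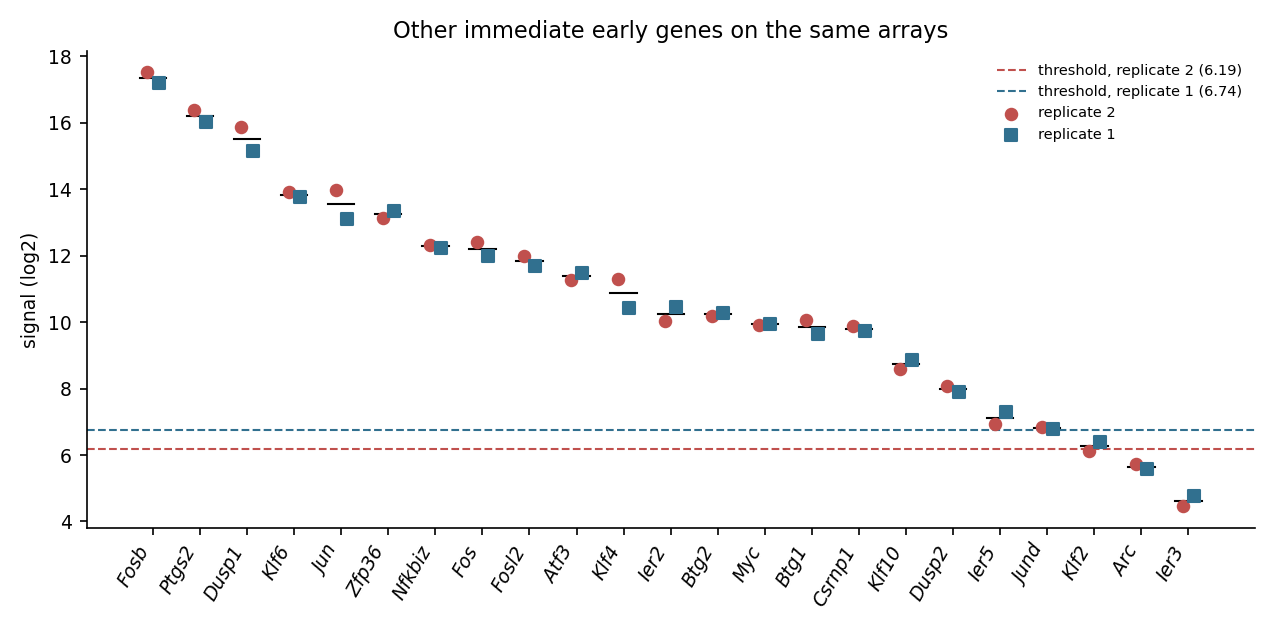
Signal (log2) of 23 other immediate early genes in replicate 2 (circles) and replicate 1 (squares), with the mean as a short line and the thresholds dashed. They run from 17.36 for Fosb to 4.61 for Ier3 (means), and 20 lie above both thresholds.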

How the data were processed

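The authors deposited 1 value per feature and array, between 2.10 and 19.86, read here as log2 signal because of that range, although no source states the base. Per the labels' protocols, RNA was extracted with TRIZOL, treated with DNase and amplified with the Affymetrix WT Pico kit, and 5.5 µg of cDNA was labelled. MAS5 is named, with no role, per the submitters' processing notes. How features were summarized and scaled, and on which genome build, is not stated in the sources used here. Array medians were 4.90 for replicate 2 and 5.02 for replicate 1, and Pearson's r across named genes, which are not independent, was 0.986.

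Features with 1 distinct gene symbol (28573) were used, those with several (2014) or none (30757) were not. Older symbols were replaced through Entrez identifiers, 21101 of 21456 of which were in RefSeq's GRCm38.p6 table. The feature of highest mean signal stood for each of the 213 genes with several. Values are means ± SD of both arrays. No test was made, since there is 1 group. Genes named were all members and examples from each list. The examples were among its 3 highest, 2 lowest and 2 most different genes above the threshold. A list of up to 6 could be named in full. Il10, Stat6, Crtc2 and Crtc3 were added, chosen after their values were seen. Members and lists were chosen with earlier results of these data known. Of 168 other listed genes 138 were measured. Analyses used Python 3.11.15 with pandas 2.3.3 and were tested on simulated data. Protein sequences were not used here. Alternatives changed the threshold, the scaling, the centring and the choice of feature, and left out each array.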

Additional observations from a re-analysis of the deposited data

How the results depend on the processing

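The count of 6 genes above the threshold on both arrays was 7 with the 90th percentile of the receptor genes, where Egr3 joined, and 4 with the 99th, where Egr2 and Nab2 no longer passed. It was 7, again with Egr3, against keratin-associated protein and Rhox genes, and 5 with the median over features, which lost Nab2. Without replicate 1 or replicate 2 it was 6 to 7, and the 7 included Egr3, which replicate 1 alone kept out. The 3 NR4A genes and Nab1 passed with the 99th percentile, where Nr4a3 cleared it by 0.10, and against the keratin-associated protein and Rhox genes. Egr4 passed neither with the 90th percentile nor against that reference. The other alternatives could not change the calls of these genes. The count of all named genes was 5588 with the 99th percentile and 8941 to 11026 otherwise. The 102 of 138 other listed genes were 75 to 109. The 99th percentile left 0 serum response and ternary complex factors (of 4), 0 endothelial (of 3), 0 mast cell and granulocyte (of 3) and 2 B and plasma cell markers (of 5), 5 EGR targets (of 8) and 3 NR4A targets (of 7). The 2 partners were 4 with the 90th percentile and without replicate 1. Quantile normalization keeps ranks, so its same counts say nothing. The median signal of 7.66 was 7.54 to 7.85 without replicate 1 or replicate 2. The median difference of -0.06 was -0.16 to -0.02 across centring, quantile normalization and the median over features, and in none was a gene over 2-fold apart. Nab1 turned from 0.06 to -0.09 under quantile normalization. No paired analysis was possible because the series holds 1 group. Signal near the threshold, that of Egr3 above all, limits what can be said of low genes.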
